A study of Mus musculus with 18 samples.

Results

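The mouse gut is patterned along its length by transcription factors that stay on in the adult epithelium, and 9 genes that carry or report this pattern were measured in intestinal crypts after deletion of Prmt1. Prmt1 encodes an arginine methyltransferase. The 9 genes were taken by gene symbol from a count table of 55335 genes, and all 9 were found and were among the 21349 that passed the filter on low counts. Gata4 and Gata6 are zinc-finger factors of the GATA family, and Pdx1 and Onecut2 are homeobox factors of the proximal gut. Cdx1 and Cdx2 are the caudal homeobox factors that maintain intestinal identity, and Osr2 is a zinc-finger factor of the odd-skipped family. Fabp6 and Slc10a2 are enterocyte genes of the ileum.

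The crypts, the epithelial pockets that hold stem and progenitor cells, came from the small intestine. All mice carried Prmt1 fl/fl and all received tamoxifen by intraperitoneal injection, 2 mg each time, at 8 to 12 weeks of age. KO mice also carried Vil-CreERT2, a tamoxifen-activated Cre recombinase driven by the villin promoter and so limited to the intestinal epithelium, and WT mice were littermates without Cre, matched for age and gender. The 6 groups were KO and WT at day 2 (after 2 injections), day 7 and day 14 (after 5 injections), with 3 mice and 3 libraries per group. No division of the crypts into duodenum, jejunum and ileum was given in the sources used here, so a different share of each segment and a different level per cell cannot be told apart. Likewise, fewer cells of a type and less RNA per cell cannot be told apart in such bulk libraries.

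Total counts ran from 12844642 to 31493484 per library, and levels are in CPM, which puts each count over the TMM-scaled size of its library. Prmt1 itself was called lower in KO on all 3 days, by -0.89 ± 0.14, -0.59 ± 0.14 and -0.72 ± 0.14 on the log2 scale (± SE) at days 2, 7 and 14. The 5 epithelial markers summed to 3719.8 to 6672 CPM, against 12.98 to 177 CPM for 7 stromal, 34.3 to 91.2 CPM for 6 immune and 0.831 to 10.7 CPM for 6 pancreatic acinar markers, and none of these genes was called between KO and WT. Hoxa13, Hoxb13 and Hoxd13, the posterior genes that define the colon, had 0 or 1 counts in each library. Genes of the stomach and Brunner's glands set 2 libraries apart, since 10 such genes summed to 205 and 191 CPM in WT day 14 replicates 1 and 3 and to at most 66.6 CPM in the others. For some day 14 values, and not for all, a fit without both of these libraries is given as well.

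As background, GATA4 is active in the duodenum and jejunum and falls away in the distal ileum, and loss of GATA4 from the jejunum is known to release ileal genes there. GATA6 is present along the whole small intestine. PDX1 marks the duodenum, and CDX2 binds and activates many genes of mature enterocytes. SLC10A2, the apical sodium-dependent bile acid transporter, takes up bile acids from the ileal lumen, and FABP6 carries them through the cell.

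All 9 genes were detected in each of the 18 libraries. Compared per kilobase of exonic length, Fabp6 had the highest level at 344 ± 170.0 CPM per kilobase (mean ± SD, n = 18 libraries). Cdx2 at 47.9 ± 7.51 and Cdx1 at 46.8 ± 7.83 CPM per kilobase came next and did not differ beyond their spread. Gata4 followed at 24.6 ± 3.76 and Gata6 at 12.6 ± 1.01 CPM per kilobase, with ranges of 15.9 to 31.5 and 11.04 to 14.6 that did not overlap. Osr2 at 7.898 ± 1.35, Onecut2 at 6.95 ± 1.81 and Slc10a2 at 6.66 ± 2.94 CPM per kilobase overlapped with each other. Pdx1 was the lowest at 2.17 ± 0.931 CPM per kilobase, so the ileal Fabp6 and the duodenal Pdx1 stood at the ends of the order.

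**Figure D1:**
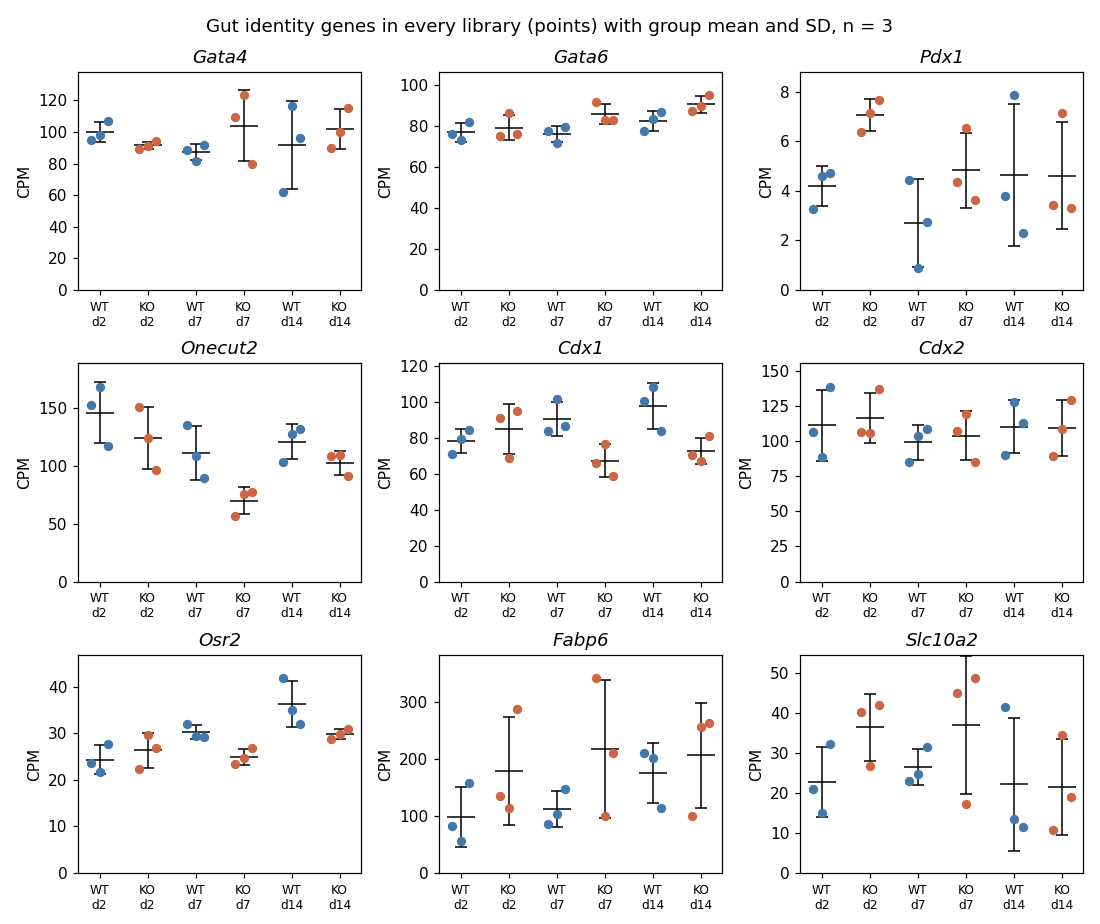
CPM (vertical axis, linear) of the 9 gut identity genes in each library by genotype and day, 3 points per group, with the group mean and SD. Onecut2 and Cdx1 lie lower in KO than in WT at day 7, and Pdx1, Fabp6 and Slc10a2 scatter most within groups.

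The main comparison asked which of these genes changed after Prmt1 deletion. At day 2 none of the 9 was called and none had an unadjusted p under 0.05, DESeq2 called 0, and 0.0328% of all tested genes were called. At day 7 Onecut2 and Cdx1 were lower in KO and none of the 9 was higher, where 17.3% of all tested genes were called and 10.2% were called and lower, so 2 of 9 is read as no more than this background. At day 14 none of the 9 was called, 2 of them (Cdx1 and Osr2) had an unadjusted p under 0.05 and DESeq2 called 0, where 7.92% of all tested genes were called and 4.69% were called and lower. The median log2 fold change of the 9 genes was 0.11, 0.17 and -0.03 at days 2, 7 and 14, against -0.0048, 0.02 and 0.0022 over all tested genes. KO and WT libraries did not overlap for 2 of the 9 genes at day 2 (all genes 8.16%), for 4 at day 7 (33.6%) and for 3 at day 14 (26.5%).

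**Figure D2:**
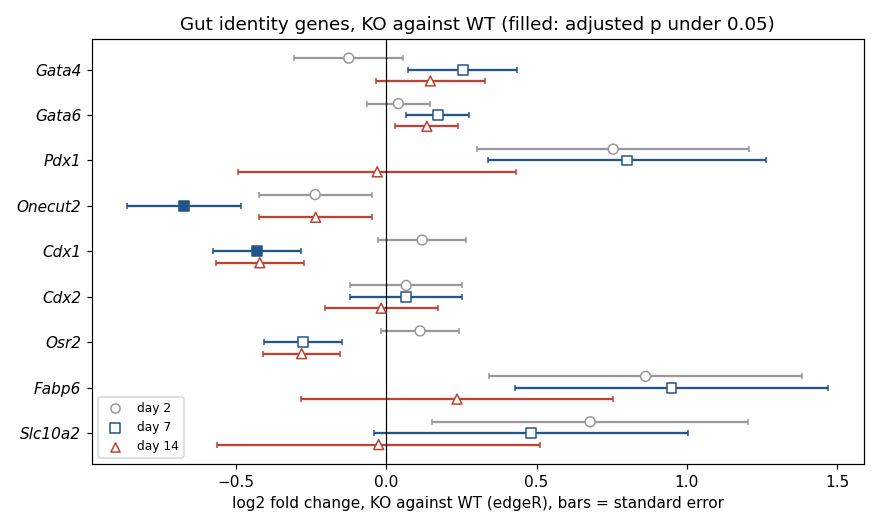
Log2 fold change of KO against WT (edgeR) of each of the 9 genes at days 2, 7 and 14, with standard errors as bars and filled symbols where the adjusted p was under 0.05. The filled symbols are Onecut2 and Cdx1 at day 7, and the bars of Pdx1, Fabp6 and Slc10a2 are the widest.

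Onecut2, a factor of the ONECUT family that marks the proximal gut, was lower in KO at day 7. It lies on chromosome 18 from 64340020 to 64400987 on the plus strand (mm10, as for all gene positions here). At day 7 it stood at 56.4, 75.8 and 77.5 CPM in the 3 KO libraries and at 136, 109 and 89.6 CPM in the 3 WT libraries. The KO group was entirely below the WT group. The log2 fold change was -0.67 ± 0.19 (SE, adjusted p 0.0181, by the quasi-likelihood test of edgeR after Benjamini-Hochberg adjustment, like the other adjusted p-values of genes). Parentheses after pairs of values below give the log2 fold change ± SE of KO against WT. The call was lost without KO day 7 replicate 1 (-0.52, adjusted p 0.135) and without WT day 7 replicate 1 (-0.51, adjusted p 0.113).

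On the other days Onecut2 was not called. At day 2 it was at 151, 125 and 96.9 CPM in KO and 153, 169 and 118 CPM in WT (-0.24 ± 0.19, adjusted p 0.999). At day 14 it was at 109, 109 and 91.1 CPM in KO and 104, 128 and 132 CPM in WT (-0.24 ± 0.19, adjusted p 0.522). The groups overlapped on both days. The difference of the KO effect between days was not called either, with -0.44 ± 0.27, adjusted p 0.417 for day 7 minus day 2 and 0.44 ± 0.27, adjusted p 0.999 for day 14 minus day 7.

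Gata4 lies on chromosome 14 from 63198922 to 63271692 on the minus strand. At day 2 it was at 89.5, 91.1 and 93.96 CPM in KO and 94.5, 97.9 and 107 CPM in WT, with all KO libraries lower and a log2 fold change of -0.12 ± 0.18, which was not called. At day 7 the values were 109, 123 and 79.6 CPM in KO and 88.8, 81.5 and 91.4 CPM in WT (0.25 ± 0.18, adjusted p 0.382). At day 14 they were 89.9, 99.8 and 115 CPM in KO and 61.9, 117 and 96.3 CPM in WT (0.15 ± 0.18, adjusted p 0.716). The groups of both later days overlapped, and WT day 14 replicate 1 was the lowest of the 18 libraries. Without that library the day 14 value was -0.06, and without both WT libraries with high gastric markers it was -0.20.

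Gata6, on chromosome 18 from 11052064 to 11085635 on the plus strand, was the steadiest of the 9 genes. Its SD within groups was 0.084 on the log2 scale, and 1.2% of all tested genes had a smaller one. On day 7 it was at 91.6, 82.9 and 82.96 CPM in KO and 77.5, 71.9 and 79.3 CPM in WT (0.17 ± 0.10, adjusted p 0.294). On day 14 it was at 87.1, 89.5 and 94.9 CPM in KO and 77.3, 83.3 and 86.6 CPM in WT (0.13 ± 0.10, adjusted p 0.505). All KO libraries lay above all WT libraries on both days, and neither difference passed the test. At day 2 it was at 75.02, 86.04 and 75.97 CPM in KO and 75.9, 72.9 and 81.8 CPM in WT, with overlapping groups (0.04 ± 0.10).

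Of 6 further GATA factors and cofactors 3 passed the filter and none was called on any day. Gata5, the third GATA factor of the gut epithelium, was at 48.9, 52.4 and 42.7 CPM in KO and 50.4, 52.8 and 52.9 CPM in WT at day 7 (-0.12 ± 0.15, adjusted p 0.665). Zfpm1, which encodes the GATA cofactor FOG1, was at 47.8, 53.3 and 47.4 CPM in KO and 56.6, 44.4 and 47.7 CPM in WT (-0.0032 ± 0.17, adjusted p 0.994).

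Pdx1, on chromosome 5 from 147269959 to 147275848 on the plus strand, was measured with 14 to 199 counts per library, the fewest of the 9 genes. At day 2 it stood at 6.39, 7.13 and 7.68 CPM in KO and 3.28, 4.58 and 4.72 CPM in WT. Every KO library was higher, and the log2 fold change of 0.75 ± 0.45 did not pass the test (adjusted p 0.999). At day 7 KO libraries were at 4.36, 6.53 and 3.62 CPM and WT libraries at 4.43, 0.895 and 2.76 CPM (0.80 ± 0.46, adjusted p 0.269). At day 14 KO libraries were at 3.43, 7.13 and 3.31 CPM and WT libraries at 3.78, 7.86 and 2.32 CPM (-0.03 ± 0.46, adjusted p 0.981). Both later days overlapped, and single libraries left out moved the day 7 value over 0.43 to 1.36. Within WT day 7 the highest library had 4.95 times the level of the lowest, the widest fold within a group for any of the 9 genes.

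Genes of the stomach and Brunner's glands were set beside Pdx1, since the stomach adjoins the duodenum. Of 10 listed genes 8 passed the filter, none was called at day 7 and 1 was lower in KO at day 14 (all tested genes called and lower 4.69%). Their summed level at day 7 was 25.1 to 66.6 CPM in KO and 6.01 to 10.5 CPM in WT, without overlap. With only these groups in the model 6 of 8 tested were called at that day (all tested genes called in that fit 14.8%), and with DESeq2 3 of 8 were (17.2%). Pgc, which encodes the pepsinogen progastricsin, was the gene called at day 14, with 0.685, 2.52 and 0.675 CPM in KO and 13.3, 0.948 and 18.6 CPM in WT (-3.08 ± 0.75, adjusted p 0.0199). Its groups overlapped, and the call was lost without KO day 14 replicates 1 or 3, without WT day 14 replicate 3 (adjusted p up to 0.0895) and without both WT libraries with high gastric markers, where its sign turned (adjusted p 0.756). With a replicate block within each day the Pgc call was lost as well (adjusted p 0.213). Muc5ac, the surface mucin of the stomach, was at 55.5, 0.0 and 37.7 CPM in the WT libraries of day 14, and Muc6, the mucin of gastric glands and Brunner's glands, was at 49.2, 11.1 and 61.9 CPM.

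Pdx1 was highest in the WT day 14 library with the lowest gastric sum, replicate 2 (14.4 CPM). Without WT day 14 replicates 1 and 3 the day 14 log2 fold change of Pdx1 was -0.77 (adjusted p 0.453), against the single WT library left, which was assumed to vary like the other groups. The part of gastric or Brunner's gland tissue in the other values was not tested.

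**Figure D3:**
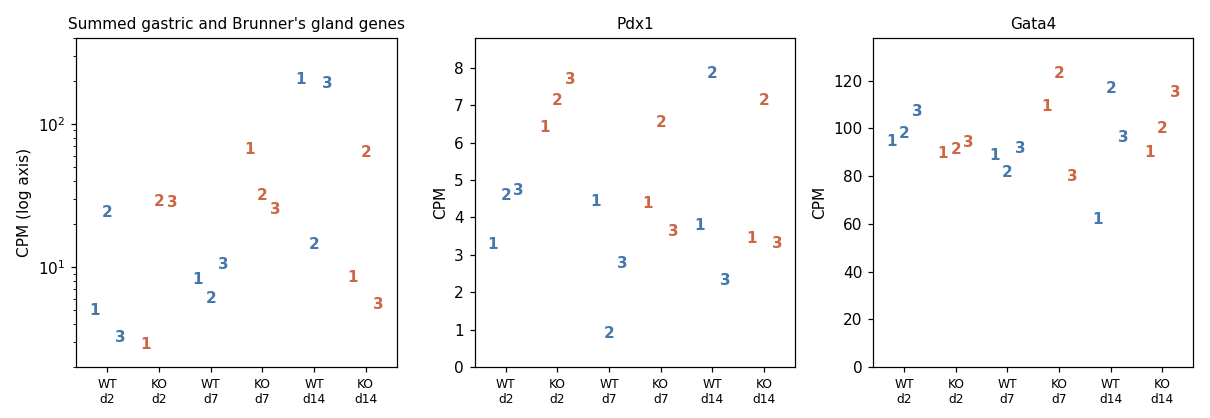
Summed CPM of 10 gastric and Brunner's gland genes (logarithmic axis), CPM of Pdx1 and CPM of Gata4 by group, each library drawn as its replicate number. WT day 14 replicates 1 and 3 stand at 205 and 191 CPM in the first panel, while Pdx1 is highest in replicate 2 of that group.

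Cdx1, a caudal homeobox factor of the crypt epithelium, lies on chromosome 18 from 61018862 to 61036199 on the minus strand and was the second gene called lower in KO at day 7. At day 7 it stood at 66.2, 76.8 and 58.5 CPM in KO and 84.1, 101 and 86.4 CPM in WT (-0.43 ± 0.15, adjusted p 0.0483). At day 14 it stood at 70.6, 67.1 and 81.02 CPM in KO and 101, 108 and 83.6 CPM in WT (-0.42 ± 0.15, adjusted p 0.0876). On both days every KO library lay below every WT library, though the day 14 difference did not pass the test. The KO effect of day 14 minus that of day 7 was 0.01 ± 0.21, adjusted p 0.999.

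At day 2 Cdx1 was at 90.9, 69.04 and 95.2 CPM in KO and 70.9, 79.5 and 84.5 CPM in WT, with overlapping groups (0.12 ± 0.15). The effect at day 7 minus that at day 2 was -0.55 ± 0.21 (unadjusted p 0.0154, adjusted p 0.152). The day 7 call was near the threshold. It was kept without KO day 7 replicate 2 and lost without each of the other 5 libraries of that day (adjusted p up to 0.187), and it was lost with the replicate block, a model in which same-numbered mice share a term (adjusted p 0.0659).

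Cdx2, the caudal factor required for intestinal identity, lies on chromosome 5 from 147300805 to 147307270 on the minus strand and was not called on any day. It was at 106, 106 and 137 CPM in KO and 106, 88.6 and 139 CPM in WT at day 2 (0.07 ± 0.19). On day 7 it was at 107, 119 and 84.9 CPM in KO and 85.1, 104 and 108 CPM in WT (0.06 ± 0.19). On day 14 it was at 89.7, 108 and 129 CPM in KO and 90.3, 128 and 113 CPM in WT (-0.02 ± 0.19). The groups overlapped on each day, and the sign of each value turned when single libraries were left out. Whether the effects on Cdx1 and Cdx2 differ was not tested.

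Of 6 intestinal genes that depend on CDX factors none was called at day 7 and 1 was higher at day 14, when 7.92% of all tested genes were called (median log2 fold change 0.19 and 0.06). Sis, the sucrase-isomaltase of the brush border, was at 3611, 5225 and 4134 CPM in KO and 1228, 1694 and 2934 CPM in WT at day 14 (1.15 ± 0.30, adjusted p 0.0229). Its groups did not overlap, and the call was lost without KO day 14 replicates 2 or 3, without WT day 14 replicates 1 or 2 (adjusted p up to 0.0907) and without both WT libraries with high gastric markers. Muc13, a transmembrane mucin, was at 1419.5, 1255 and 1528 CPM in KO and 1229, 1166 and 1244 CPM in WT at day 7 and was not called (0.21 ± 0.19, adjusted p 0.508).

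Osr2, on chromosome 15 from 35296098 to 35303305 on the plus strand, was the only one of the 9 genes called between WT groups. WT libraries stood at 23.6, 21.7 and 27.7 CPM at day 2, 31.9, 29.3 and 29.3 CPM at day 7 and 41.8, 34.9 and 32.1 CPM at day 14. The WT groups of the 3 days did not overlap. WT day 14 was higher than WT day 2 (0.57 ± 0.13, adjusted p 0.0365), where 1.61% of all tested genes were called. The call was lost without WT day 2 replicates 1 or 2 (adjusted p 0.147 and 0.064) and without WT day 14 replicate 1 (0.129), one of the libraries with high gastric markers, and with the replicate block (0.0566) or with only these WT groups in the model (0.102). Day 2 and the later days also differed in the number of tamoxifen injections, which cannot be told apart from time.

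In KO mice Osr2 stood at 22.4, 29.7 and 26.8 CPM at day 2, 23.3, 24.6 and 26.8 CPM at day 7 and 28.7, 29.7 and 30.8 CPM at day 14. KO libraries lay below all WT libraries of the same day at days 7 and 14 and overlapped with them at day 2. The log2 fold changes of 0.11 ± 0.13 at day 2, -0.28 ± 0.13 at day 7 (adjusted p 0.153) and -0.28 ± 0.13 at day 14 (adjusted p 0.208) did not pass the test. These comparisons use the same WT libraries as those between WT days. None of the 9 genes was called between WT day 7 and WT day 2 (0.553% of all tested genes) or between WT day 14 and WT day 7 (0.0796%). At an unadjusted p under 0.05 the former held 1 of the 9, Osr2 (0.0259), and the latter held none.

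Fabp6, the bile acid binding protein of the ileum, lies on chromosome 11 from 43596049 to 43601540 on the minus strand and, with Slc10a2, varied most between mice of a group. The SDs within groups were 0.69 for both on the log2 scale, above 95.3% and 95.2% of all tested genes, whose median was 0.28. At day 2 Fabp6 was at 135, 115 and 288 CPM in KO and 81.96, 56.2 and 158 CPM in WT (0.86 ± 0.52). At day 7 it was at 341, 99.3 and 211 CPM in KO and 86.4, 103 and 148 CPM in WT (0.95 ± 0.52, adjusted p 0.248). At day 14 it was at 100.4, 255 and 262 CPM in KO and 209.9, 201 and 114 CPM in WT (0.24 ± 0.52, adjusted p 0.857). The groups overlapped on each day and no difference was called. Leaving out single libraries moved the log2 fold change of Fabp6 over 0.34 to 1.37 at day 2, 0.48 to 1.30 at day 7 and 0.013 to 0.57 at day 14.

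Slc10a2, the bile acid transporter, lies on chromosome 8 from 5083219 to 5105351 on the minus strand. At day 2 it was at 40.3, 26.8 and 41.98 CPM in KO and 21.03, 14.9 and 32.1 CPM in WT (0.68 ± 0.52). On day 7 it was at 44.96, 17.1 and 48.6 CPM in KO and 22.9, 24.8 and 31.4 CPM in WT (0.48 ± 0.52, adjusted p 0.596). On day 14 it was at 10.8, 34.4 and 19.1 CPM in KO and 41.3, 13.5 and 11.6 CPM in WT (-0.03 ± 0.54, adjusted p 0.985). The groups overlapped on each day. Leaving out single libraries moved the day 2 value over 0.45 to 1.01 and that of day 7 over 0.25 to 0.83. The day 14 value turned to 0.77 without WT day 14 replicate 1 and to 0.66 without both WT libraries with high gastric markers, and neither was called.

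The promoters of both ileal genes are shown because these genes had the highest SDs within groups of the 9. They are RefSeq sequences of GRCm38.p6, the assembly behind mm10, from 250 bases before to 50 bases after the annotated start, 5′ to 3′ on the minus strand, on which both genes lie. Fabp6 is at chr11:43601513-43601812 and Slc10a2 at chr8:5105238-5105537. Capitals mark matches to a GATA motif (AGATAA and the variant AGATAG, besides TGATAA and the variant TGATAG) or a CDX motif (TTTATNG and the variant TTTACNA) on either strand.
Fabp6: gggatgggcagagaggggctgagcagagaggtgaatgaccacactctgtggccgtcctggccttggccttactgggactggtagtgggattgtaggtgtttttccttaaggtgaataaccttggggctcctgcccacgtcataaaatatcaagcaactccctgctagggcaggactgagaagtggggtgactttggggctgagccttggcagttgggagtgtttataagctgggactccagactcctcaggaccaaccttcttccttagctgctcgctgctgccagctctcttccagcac
Slc10a2: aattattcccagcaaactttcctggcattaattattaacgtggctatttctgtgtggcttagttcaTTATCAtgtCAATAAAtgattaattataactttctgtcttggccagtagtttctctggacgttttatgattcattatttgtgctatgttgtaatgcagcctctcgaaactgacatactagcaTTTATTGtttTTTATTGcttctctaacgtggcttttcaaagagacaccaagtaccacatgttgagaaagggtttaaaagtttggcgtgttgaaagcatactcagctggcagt
The Slc10a2 window holds 1 GATA match and 3 CDX matches, and the Fabp6 window holds no match to either, while neither holds an HNF1 match. Among 32851 mouse promoters of this length 29.8% hold a GATA match, 18.1% a CDX match and 0.00913% an HNF1 match. Only 3 of the 32851 promoters hold an HNF1 match under the strict pattern searched, so nearly any window lacks one. Its absence from both windows therefore cannot decide whether they hold a looser HNF1-like site. A match describes letters in the window, and no binding was measured.

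The main test of relations used the 9 WT libraries without centring. There Fabp6 and Slc10a2 gave a Pearson r of 0.39 (exact permutation, two-sided, p 0.297, adjusted over 6 pairs 0.356). The Spearman rho was 0.42 (exact p 0.27, adjusted 0.349), and r fell to -0.07 without the 2 libraries farthest from the Fabp6 median. As an alternative, centred within days, the WT value was 0.72 (exact permutation p 0.0417, adjusted 0.25). As another, over all 18 libraries centred on the means of their groups, r was 0.77 (exact permutation within groups, p 0.00225, adjusted 0.0135). There rho was 0.81 (exact p 0.00135, adjusted 0.0081), and r was 0.66 without the 2 farthest libraries. The adjustment covers the 6 pairs and not the settings tried. The relation thus passed the threshold in an alternative setting, over all centred libraries, and not in the main test.

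**Figure D4:**
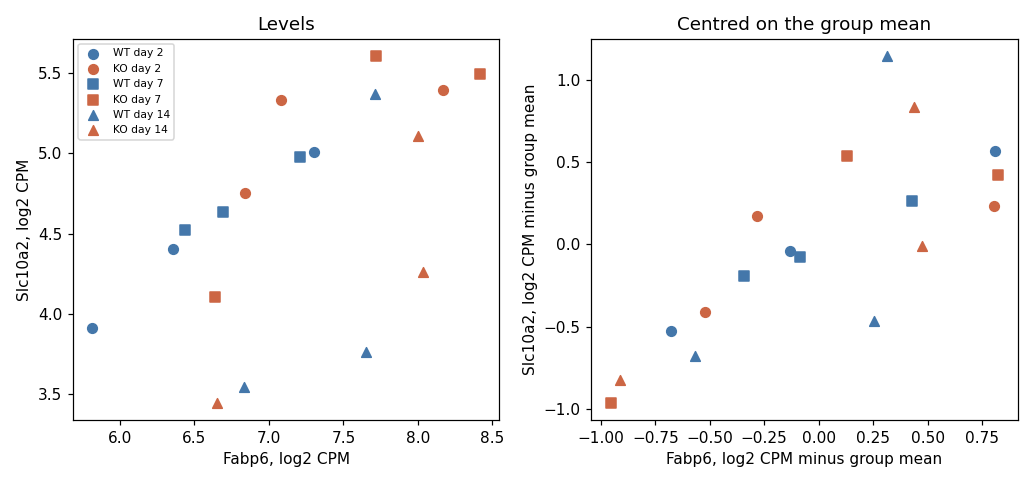
Slc10a2 (vertical) against Fabp6 (horizontal) in each of 18 libraries, as log2 CPM and as log2 CPM minus the mean of the group, marked by genotype and day. The points rise together once centred (r 0.77), while some day 14 libraries lie low in Slc10a2 before centring.

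The other 5 pairs were examined over the 9 WT libraries, and none passed the threshold. Fabp6 and Osr2 gave the highest r, 0.80 (exact permutation p 0.0106, adjusted 0.0633), with a rho of 0.72 (exact p 0.0369, adjusted 0.221). It was 0.49 without the 2 farthest libraries and 0.70 with days centred (exact permutation, adjusted p 0.361). Gata4 and Slc10a2, which mark different segments, gave an r of -0.62 (exact permutation p 0.0682, adjusted 0.205) and a rho of -0.53 (exact p 0.147, adjusted 0.295). Without the 2 libraries farthest from the Gata4 median that r was -0.07, so it rested on those libraries. Gata4 gave an r of -0.14 with Fabp6, 0.42 with Pdx1 and 0.40 with Onecut2 (exact permutation, adjusted p 0.728, 0.356 and 0.356), with a rho of 0.0, 0.63 and 0.40 (exact adjusted p 1.0, 0.228 and 0.349).

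Likeness of pattern was ranked over 17080 tested genes with a mean of at least 1 CPM, by Pearson's r over the 18 centred libraries, as a description without a test. Among the genes most like Gata4 were Nags (0.92), Tysnd1 (0.92), Ces2g (0.91) and Rnd2 (0.90), with r in parentheses. Those most like Fabp6 were Gmppa (0.90), Suox (0.88), Lamb3 (0.87), Dnajb14 (0.85) and Zfand2a (0.84). Suox, which encodes sulfite oxidase, was also the gene most like Slc10a2 (r 0.88), named here after its value was seen. Those most like Cdx1 were Trmt6 (0.94), Hist1h2ag (0.92), Hist1h2ah (0.92), Txnl4a (0.92) and Ado (0.92), of which Hist1h2ag and Hist1h2ah are near-identical histone genes, so their counts are uncertain, since reads that match more than 1 place were left out. The gene most like Pdx1, also named after its value was seen, was Akp3 (r 0.97), an intestinal alkaline phosphatase. The genes compared share libraries, depth and cell composition.

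Enterocyte genes of the proximal and distal gut were examined beside the 9 identity genes. Of 8 proximal enterocyte genes 1 was higher and 1 lower at day 7 and none was called at day 14 (median log2 fold change 0.55 and 0.80). With 17.3% of all tested genes called at day 7, 2 of 8 is read as no more than the background. Fabp1, the liver-type fatty acid binding protein, was at 1692, 1074 and 853 CPM in KO and 374, 541 and 321 CPM in WT at day 7 (1.55 ± 0.40, adjusted p 0.0129), a call lost without KO day 7 replicate 1 or WT day 7 replicates 1 or 3. Lct, the lactase of the brush border, was at 237, 279 and 346 CPM in KO and 986, 756 and 570.3 CPM in WT (-1.42 ± 0.47, adjusted p 0.0486), a call lost without any 1 of the 6 libraries. KO and WT did not overlap for either gene.

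Of 7 ileal enterocyte genes besides Fabp6 and Slc10a2, 3 were higher and 1 lower at day 7, and 1 was lower at day 14 (median log2 fold change 0.37 and 0.29). For comparison, 17.3% of all tested genes were called at day 7, and 4.69% were called and lower at day 14, so the single call of day 14 is not read as a result about the list. Nr1h4, the bile acid receptor FXR, was at 79.5, 60.4 and 83.97 CPM in KO and 44.4, 50.2 and 50.2 CPM in WT at day 7 (0.63 ± 0.15, adjusted p 0.00716). Slc51b, a subunit of the basolateral bile acid exporter, was at 58.7, 38.8 and 40.3 CPM in KO and 20.4, 24.2 and 24.7 CPM in WT (0.99 ± 0.23, adjusted p 0.00583). Nr0b2, which encodes the FXR target SHP, was at 6.404, 2.28 and 2.36 CPM in KO and 1.04, 1.15 and 0.526 CPM in WT (2.02 ± 0.52, adjusted p 0.0119). Slc51a, the partner subunit of Slc51b, was at 166, 130.2 and 127 CPM in KO and 101, 107 and 120.0 CPM in WT and was not called (0.37 ± 0.22, adjusted p 0.289, named after its values were seen). KO and WT did not overlap for these genes, Slc51a included, and the call of Nr0b2 was lost without KO day 7 replicate 1 or WT day 7 replicate 3.

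Fgf15, the ileal hormone induced by FXR, was the gene lower at day 14, at 1.26, 2.46 and 2.29 CPM in KO and 9.44, 5.29 and 4.96 CPM in WT (-1.70 ± 0.44, adjusted p 0.0204). At day 7 it was at 1.29, 0.737 and 1.62 CPM in KO and 2.45, 1.28 and 2.58 CPM in WT and was not called (-0.83 ± 0.46, adjusted p 0.238). The day 14 groups did not overlap, and the call was lost without KO day 14 replicates 1 or 3 or WT day 14 replicate 1, and likewise without both WT libraries with high gastric markers (adjusted p 0.169). The gene lower at day 7 was Cubn, the receptor cubilin (-1.94 ± 0.54, adjusted p 0.0228), which was named after its values were seen. Its call was lost without KO or WT day 7 replicates 1 or 2.

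Of the colonic genes described here, Slc26a3 and Car1 were higher in KO on each of days 7 and 14. Slc26a3, a chloride and bicarbonate exchanger, was at 348, 246 and 229.5 CPM in KO and 159, 175 and 148 CPM in WT at day 7 (0.77 ± 0.17, adjusted p 0.00418). At day 14 it was at 206, 197 and 182 CPM in KO and 101, 134 and 155 CPM in WT (0.58 ± 0.17, adjusted p 0.0434), and that call was kept only without WT day 14 replicate 3 when each of the 6 libraries was left out. It was also lost with the replicate block (adjusted p 0.0636), with only these groups in the model (0.066) and without both WT libraries with high gastric markers (0.218). Car1, a carbonic anhydrase of colonocytes, had 90, 6 and 31 counts in KO and 0 counts in each WT library at day 14, at least 14.9-fold higher with 3 counts per library as the limit for WT (adjusted p 0.00214). On day 7 it had 5, 7 and 20 counts in KO and 0, 0 and 1 in WT (adjusted p 0.0456), a call lost without any 1 of the 6 libraries.

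Of 14 pan-intestinal regulators 2 were lower at day 7 and none was called at day 14, when 2 had an unadjusted p under 0.05. As 10.2% of all tested genes were called and lower at day 7, 2 of 14 is read as no more than the background. Sox9, a factor of crypt progenitors and Paneth cells, was at 10.98, 16.95 and 20.2 CPM in KO and 25.7, 27.6 and 26.8 CPM in WT at day 7 (-0.73 ± 0.16, adjusted p 0.00367). Foxa2, a forkhead factor of the gut endoderm, was at 1.601, 2.32 and 3.54 CPM in KO and 5.04, 3.45 and 4.29 CPM in WT (-0.79 ± 0.24, adjusted p 0.0272). The call of Sox9 was kept without each library in turn, while that of Foxa2, whose groups overlapped, was lost without KO day 7 replicates 1 or 2 or WT day 7 replicates 1 or 3.

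Hormone genes of enteroendocrine cells, made in proximal or distal segments, were called on both later days, when 17.3% (day 7) and 7.92% (day 14) of all tested genes were. Of 4 tested proximal hormone genes 3 were higher and 1 lower on both later days, and of 3 tested distal ones 3 were higher at day 7 and 2 at day 14, when Nts was not called (0.70 ± 0.33, adjusted p 0.225). Cck, made mainly in the proximal gut, was at 50.4, 26.5 and 22.5 CPM in KO and 12.95, 11.8 and 13.3 CPM in WT at day 7 (1.38 ± 0.22, adjusted p 0.00032). Gip, the incretin of proximal K cells, was at 78.8, 73.7 and 62.003 CPM in KO and 41.1, 39.3 and 31.2 CPM in WT (0.94 ± 0.19, adjusted p 0.00195). Sct, which encodes secretin, was higher by 1.52 ± 0.32 (adjusted p 0.00358). All KO libraries lay above all WT libraries for these 3 genes at day 7.

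Among the distal hormones, Gcg, the proglucagon gene of L cells, was at 79.6, 55.4 and 59.4 CPM in KO and 24.9, 26.01 and 29.6 CPM in WT at day 7 (1.27 ± 0.20, adjusted p 0.000246). Pyy, the peptide YY gene of L cells, was at 14.5, 6.32 and 7.77 CPM in KO and 2.12, 1.597 and 1.36 CPM in WT (2.48 ± 0.40, adjusted p 0.000316). Nts, the neurotensin gene, was higher by 1.08 ± 0.33 (adjusted p 0.03), a call kept only without KO day 7 replicate 2 when each library was left out and lost with a replicate block within each day (adjusted p 0.0544). At day 14 Cck, Gip, Sct, Gcg and Pyy were higher by 1.33 ± 0.23, 1.26 ± 0.19, 1.13 ± 0.32, 0.98 ± 0.20 and 1.98 ± 0.40. Without both WT libraries with high gastric markers the day 14 calls of Cck and Sct were lost (adjusted p 0.0817 and 0.446), and that of Sct was kept in 1 of 6 fits that left out a library and lost with the replicate block (0.0561).

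Ghrl, the ghrelin gene of the stomach and proximal gut, was the hormone gene that was lower. It was at 6.54, 6.21 and 7.64 CPM in KO and 10.7, 11.5 and 10.3 CPM in WT at day 7 (-0.67 ± 0.17, adjusted p 0.00876) and at 5.27, 7.38 and 5.396 CPM in KO and 9.74, 12.1 and 11.7 CPM in WT at day 14 (-0.90 ± 0.17, adjusted p 0.00246). KO libraries lay below WT libraries on both days, and both calls were kept without each library in turn.

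**Figure D5:**
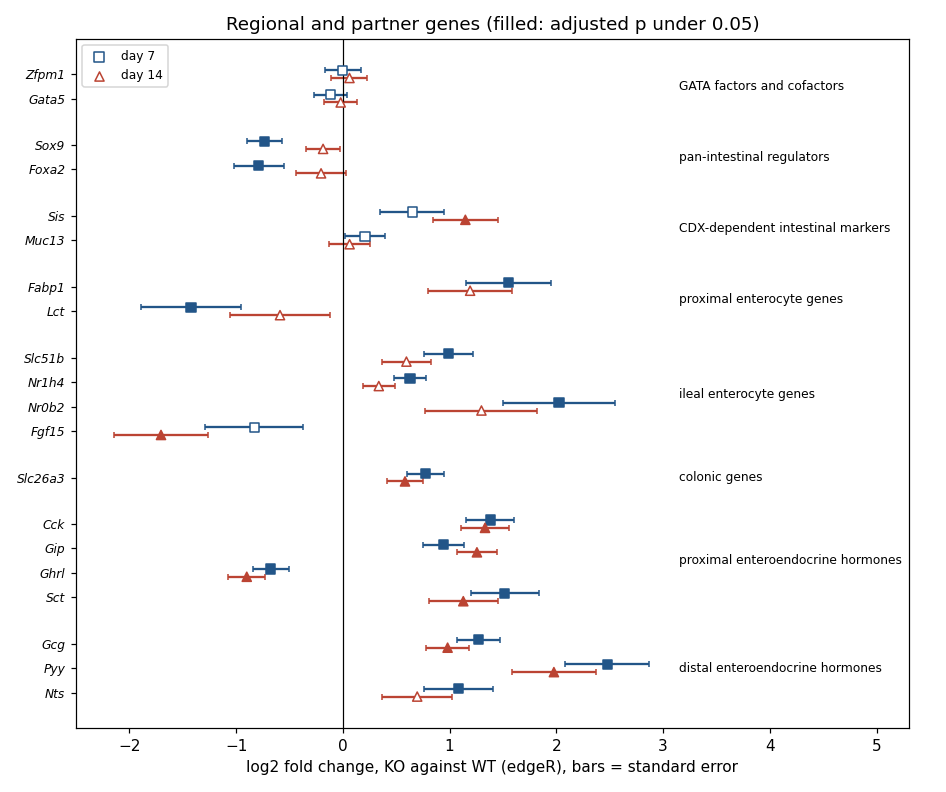
Log2 fold change of KO against WT (edgeR, bars are standard errors) at days 7 and 14 for the genes named from the regional lists, filled where the adjusted p was under 0.05. The hormone genes lie to the right of 0 apart from Ghrl, which lies to the left on both days.

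The KO effect on none of the 9 identity genes differed between days past the threshold. Between day 2 and day 7 4.37% of all tested genes were called, and Cdx1 and Osr2 had unadjusted p-values of 0.0154 and 0.0455. Between day 7 and day 14 0.0% of all tested genes were called by edgeR, and none of the 9 had an unadjusted p under 0.05. The lowest p among them was that of Onecut2, 0.115.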

How the data were processed

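RNA was measured in crypts of 18 mice, 1 library per mouse, as rRNA-depleted total RNA read in pairs of 100 bases. The authors aligned reads to mm10 with STAR 2.7.3 and deposited raw counts per gene from featureCounts 1.6.4, with multi-mapped reads left out, reads over several genes counted for each and strand not used. The count command names GENCODE release 23 and the methods release 26, and the processing notes also list HTSeq. The annotation behind each gene is therefore that of the deposited file, and reads of overlapping or antisense genes cannot be told apart.

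Groups were taken from the sample labels, and no per-sample column was left unused. The 20 sex-dependent genes of the study's list were left out before normalization. Counts were filtered with filterByExpr by group, scaled by TMM and tested with edgeR 4.0.16 (robust quasi-likelihood, R 4.3.3, limma 3.58.1) in a model of 1 mean per group over all 18 libraries, with Benjamini-Hochberg adjustment over 21349 genes and a threshold of 0.05. "Called" means past that threshold. Correlations used log2 CPM with a prior count of 2 (scipy 1.17.1). The study's own test was DESeq2, run here as DESeq2 1.42.0 among the alternatives.

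The 9 genes and all lists were chosen with earlier results of these data known. From each list the up to 4 called genes with the smallest adjusted p were named, or, where fewer than 2 were called, the 2 with the highest mean CPM, and for Gata4, Fabp6 and Cdx1 the 5 genes most alike in pattern. A few results under this rule are not reported here. Deviations of same-numbered KO and WT libraries from their group means correlated at 0.0478, 0.158 and 0.381 at day 2, at -0.159, 0.206 and 0.0787 at day 7 and at 0.227, 0.18 and 0.159 at day 14. Every pair was over 0.1 at day 14 only. Libraries with different numbers were not compared, so these values do not show that the numbers pair the mice. The labels give no pairing, and the main model used none. Total counts per library ran from 12844642 to 31493484. The alternatives were another normalization, no filter, the sex-dependent genes kept, the 20 most abundant genes left out, only the groups compared, replicate blocks and each library left out in turn.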

Additional observations from a re-analysis of the deposited data

Results flagged for a closer look

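No test for outlying samples was run, since each group held 3 libraries, and the KO effect on none of the 9 identity genes passed the test of a difference between days. Genes of the other lists had a KO effect (log2 fold change of KO against WT) that differed between day 7 and day 2 by edgeR's interaction test with Benjamini-Hochberg adjustment. Among hormone genes the effect at day 7 exceeded that at day 2 by 2.00 for Pyy (adjusted p 0.047), 1.63 for Sct (0.049), 1.30 for Cck (0.0245), 1.205 for Gcg (0.0194) and 1.10 for Gip (0.0245). Among the other genes it was 1.01 for Slc26a3 (0.0242), -2.23 for Fgf15 (0.0496), -1.22 for Foxa2 (0.0424) and -0.84 for Sox9 (0.0398). The KO effect on Fgf15 was 1.40 ± 0.43 at day 2 and -0.83 ± 0.46 at day 7, and neither was called. Its difference thus includes a higher KO level at day 2.

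For 2 further genes all KO libraries lay on one side of WT at day 2 and on the other at day 7, while the interaction did not pass the test. The difference was -0.65 for Elf3, an epithelial ETS factor (adjusted p 0.0537), and 0.89 for Acta2, the smooth muscle actin among the stromal markers (adjusted p 0.339), so a difference between days is not shown for either.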

How the results depend on the processing

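With DESeq2's size factors, with no filter on low counts, with the replicate block and with only the 2 groups compared, 1 of the 9 genes was called at day 7 in place of 2, and with single libraries left out 0 to 2 were. For WT day 14 against day 2 the count was 0 with the replicate block and with only these groups, and 0 to 1 with single libraries left out. No alternative called any of the 9 at day 2 or day 14. Small values changed sign when single libraries were left out, over -0.024 to 0.078 for Gata6 and -0.073 to 0.25 for Cdx2 at day 2, -0.048 to 0.22 for Cdx2 at day 7, and at day 14 over -0.15 to 0.11 for Cdx2, -0.47 to 0.62 for Pdx1, -0.53 to 0.77 for Slc10a2 and -0.062 to 0.36 for Gata4. At day 14 the replicate block gave 0.0013 for Pdx1 and 0.10 for Slc10a2, a block within each day gave 0.054 and 0.10, and leaving out WT day 14 replicates 1 and 3 gave 0.66 for Slc10a2 and -0.20 for Gata4. These last 2 settings, and all those for WT days, were chosen after seeing the data. The alternatives other than single libraries left out, these 2 among them, moved further day 14 values. Those values ran over 0.028 to 0.25 for Fabp6, -0.23 to -0.0058 for Cdx2 and -0.58 to -0.41 for Cdx1. The block changed no other call of the 9 genes than those named for Cdx1 and Osr2. The r of Gata4 and Fabp6 was 0.0081 with days centred and 0.029 over 18 centred libraries, that of Gata4 and Onecut2 was -0.021 over 18, and that of Fabp6 and Slc10a2 was 0.77 over 18 and past the threshold there only. Among the other genes named, the day 7 calls of Lct, Cubn, Car1, Fabp1 and Nts were lost with no filter on low counts (adjusted p up to 0.129) and that of Foxa2 with only the 2 groups compared (0.103), and at day 14 those of Sct and Pgc were lost with no filter (0.131 and 0.0512) and those of Sis and Pgc with only the 2 groups (0.0582 and 0.257). The causes were not tested. Pdx1, with as few as 14 counts in a library, is the gene most limited by depth.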
